A study of Mus musculus with 18 samples.

Results

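The 39 *Hox* genes of the mouse were followed through colon cells and colon crypts with and without the olfactory receptor Olfr78. Members were taken by name alone, as every row of both deposited tables whose gene name is Hox followed by a cluster letter and a number, and this gave 39 of the 52636 genes in the tables. They comprise 11 genes of the HoxA cluster on chromosome 6, 10 of HoxB on chromosome 11, 9 of HoxC on chromosome 15 and 9 of HoxD on chromosome 2.

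*Hox* genes encode homeodomain transcription factors that give cells their position along the head-to-tail axis of the body. Genes within a cluster are numbered in the order in which they lie along the chromosome, and as a rule the higher the paralog number, the more posterior the domain in which the gene is switched on in the embryo. Part of this code persists in the adult gut, where group 13 genes, *Hoxa13*, *Hoxb13* and *Hoxd13*, are known as genes of the hindgut and distal colon. Hox proteins bind DNA together with cofactors of the TALE class (Pbx, Meis and Pknox proteins), Polycomb complexes keep silent *Hox* genes closed, and the trithorax protein Kmt2a keeps active ones open.

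Bulk RNA-seq was available for 18 libraries in 7 groups. In the Olfr78-GFP line the Olfr78 coding exon is replaced by a GFP-IRES-tauLacZ cassette, so that heterozygous (HE) and homozygous (KO) mice carry GFP in cells that use the locus. Cells positive for both Epcam and GFP came from colon crypts of HE mice (2 pools, called HE cells here) and KO mice (2 pools, called KO cells), each pool made from 2 mice of 4 to 7 months. Cells with Epcam but no GFP of a wild-type (WT) mouse, called Epcam+ve cells, were collected as 2 samples. These 2 samples share their mouse, so their spread is technical. Whole colon crypts came from 2 WT and 5 KO mice of this line. A second table held crypts of the Vil1Cre/+-Olfr78fx line, in which Cre recombinase driven by the Villin promoter deletes Olfr78 in gut epithelium: 3 control mice (eCtrl, either without the floxed allele or without Cre) and 2 eKO mice (Vil1Cre/+-Olfr78fx/fx). Each crypt library is 1 mouse, and neither the age of the crypt mice nor the stretch of colon taken from each is given in the sources used here.

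Values are CP20M, reads per gene scaled to 20000000 per library. The reads behind them could be recovered: 1946873 and 2237486 in the Epcam+ve cells, 1499836 and 1738139 in the HE cells, 532704 in KO pool 1 and 1721183 in KO pool 2, and 6175306 to 10995342 in crypts. A read was therefore worth 1.82 to 3.24 CP20M in crypts, 8.94 to 13.3 CP20M in most sorted libraries and 37.5 CP20M in KO pool 1. Olfr78, the targeted gene, stood at 4822 and 4401 CP20M in HE and 977 and 837 in KO cells, at 88 and 111 in WT and 42, 23, 27, 28 and 7 in KO crypts, and at 105, 61 and 124 in eCtrl and 21 and 73 in eKO crypts. The library labelled eKO 2 carries the genotype label WT/HO, the same as eCtrl 2, and its Olfr78 value lay within the range of the controls, so results of the Vil1Cre line are given with and without it. All sorted samples share a label calling them enteroendocrine, but the summed level of 6 enteroendocrine marker genes (*Chga*, *Chgb*, *Tph1*, *Pyy*, *Gcg*, *Insl5*) was 13105 and 13039 CP20M in the Epcam+ve cells against 839855 and 1083975 in the HE cells and 584681 and 352852 in the KO cells. In bulk samples, fewer cells of a type and less RNA per cell cannot be told apart.

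Regulatory DNA just upstream of 5 members shows the loci that the results turn on. *Hoxa13* and *Hoxd13* are posterior genes, *Hoxb8* is among the genes that were higher in the HE cells, and *Hoxd10* and *Hoxd11* were higher in KO than in WT crypts. Each line holds the 250 bases before the RefSeq start site (GRCm38.p6, read 5′ to 3′ on the gene's own strand), and capitals mark TTTAT or its reverse complement ATAAA, the core of the site that posterior Hox and Cdx proteins bind. The windows lie at chr6:52260881-52261130 (minus strand) for *Hoxa13*, chr2:74667975-74668224 (plus strand) for *Hoxd13*, chr11:96281655-96281904 (plus strand) for *Hoxb8*, chr2:74691641-74691890 (plus strand) for *Hoxd10* and chr2:74679308-74679557 (plus strand) for *Hoxd11*.
Hoxa13: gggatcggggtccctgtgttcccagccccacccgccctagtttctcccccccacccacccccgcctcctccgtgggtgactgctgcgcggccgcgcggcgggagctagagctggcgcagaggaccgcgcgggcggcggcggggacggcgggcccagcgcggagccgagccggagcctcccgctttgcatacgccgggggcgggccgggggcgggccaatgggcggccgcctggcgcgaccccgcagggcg
Hoxd13: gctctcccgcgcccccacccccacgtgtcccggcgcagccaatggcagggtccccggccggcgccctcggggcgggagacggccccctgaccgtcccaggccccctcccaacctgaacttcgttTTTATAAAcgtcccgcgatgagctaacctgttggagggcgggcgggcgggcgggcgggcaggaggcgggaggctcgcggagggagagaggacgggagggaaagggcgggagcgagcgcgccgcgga
Hoxb8: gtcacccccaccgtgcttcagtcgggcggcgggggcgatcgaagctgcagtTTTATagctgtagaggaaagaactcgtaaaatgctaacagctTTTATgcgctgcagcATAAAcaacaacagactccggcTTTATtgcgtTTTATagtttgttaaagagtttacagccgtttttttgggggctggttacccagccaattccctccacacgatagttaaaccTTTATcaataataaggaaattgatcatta
Hoxd10: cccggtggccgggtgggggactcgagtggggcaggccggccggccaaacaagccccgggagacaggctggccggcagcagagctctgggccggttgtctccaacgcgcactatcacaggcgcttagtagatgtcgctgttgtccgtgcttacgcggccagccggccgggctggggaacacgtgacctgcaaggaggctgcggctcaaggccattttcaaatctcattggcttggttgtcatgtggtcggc
Hoxd11: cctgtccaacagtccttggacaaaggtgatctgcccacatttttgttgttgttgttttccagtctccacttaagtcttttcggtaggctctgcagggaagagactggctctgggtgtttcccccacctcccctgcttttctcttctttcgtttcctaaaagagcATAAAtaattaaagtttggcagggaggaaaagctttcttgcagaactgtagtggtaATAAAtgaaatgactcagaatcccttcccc
The *Hoxd10* window lies inside the span of Gm28309, and the *Hoxd11* window ends on the first base of the *Hoxd11* gene in the GRCm38 annotation. No exon of the annotation's basic transcripts overlaps the other 4 windows. The window of *Hoxb8* held 6 matches, the first of them 199 bases and the last 29 bases upstream of the start. The *Hoxd11* window shown held 2 matches and the *Hoxd13* window 2 that overlap each other, while those of *Hoxa13* and *Hoxd10* held none. *Hoxd11* has another RefSeq window, at chr2:74682073-74682322, which is not shown and held no match. The *Hoxa13* window is also the richest of the 5 in G and C, at 80.0%, against 44.4% for *Hoxb8*. RefSeq windows were found for 22 of the 39 members (24 windows in all), and 9 of the 24 (37.5%) held the motif on either strand. Among the 32851 windows of all genes 37.3% did, close to the share over members. *Hoxb13*, *Hoxb9*, *Hoxc6* and *Hoxb5* had no entry.

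Adult colon crypts carried a broad *Hox* pattern from which HoxC was nearly missing. Of the 39 members, 22 reached at least 40 CP20M in every one of the 12 crypt libraries, 4 did so in some of them (*Hoxa4*, *Hoxb2*, *Hoxd10*, *Hoxd12*) and 12 in none. *Hoxc12* had no read in any of the 18 libraries. The 12 below the limit included 8 HoxC genes, so that no HoxC gene reached 40 CP20M in any crypt library. Summed over its 9 genes, HoxC gave 23 and 30 CP20M in WT crypts, against 2800 and 2960 for HoxA, 4834 and 4949 for HoxB and 1003 and 1018 for HoxD. Because longer transcripts gather more reads, levels of different genes are compared per kb of exon. On that scale the mean over 12 crypt libraries was highest for *Hoxb9* (582 CP20M per kb), *Hoxb6* (509) and *Hoxb13* (468). The order of these 3 differed between the lines, which are in separate tables. *Hoxb13* stood at 279 CP20M per kb in WT and 311 in KO crypts, under *Hoxb6* and *Hoxb9*, and at 742 in eCtrl and 638 in eKO crypts, above both. These 3 genes led the pooled order. They were followed by *Hoxa7* (218), *Hoxb7* (207), *Hoxd13* (195), *Hoxa13* (179), *Hoxb5* (178), *Hoxa5* (176) and *Hoxa10* (145). At the anterior end *Hoxb1* and *Hoxd1* were low, at 1.08 and 2.46 CP20M per kb. Levels did not climb steadily with paralog number: in HoxD, group 13 stood at 195 CP20M per kb while its neighbours *Hoxd12*, *Hoxd11*, *Hoxd10* and *Hoxd9* stood at 13.9, 29.9, 29.4 and 6.28.

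**Figure D1:**
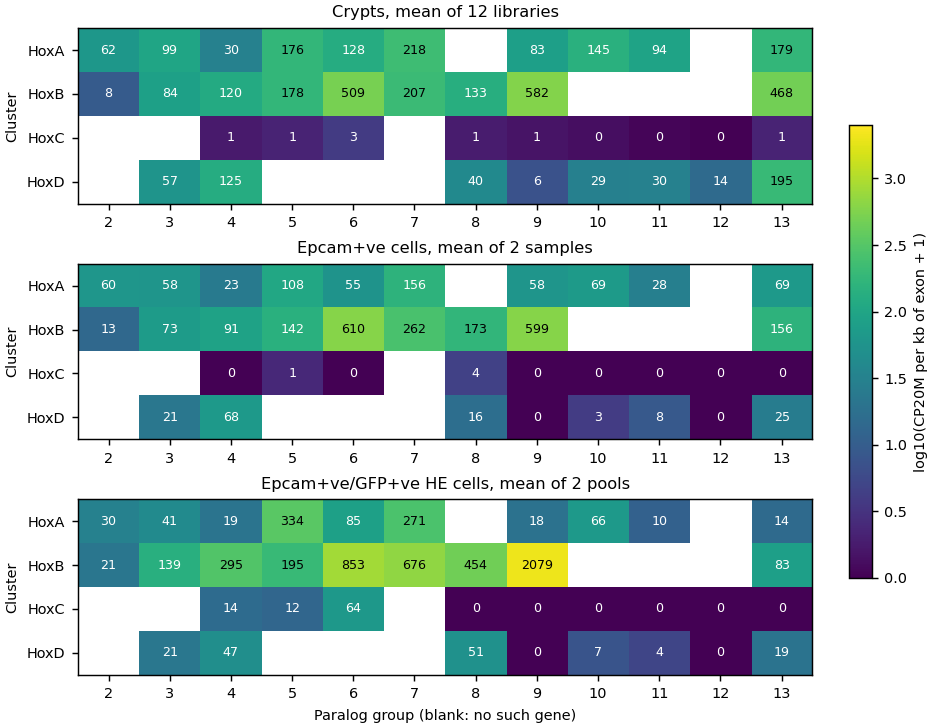
Mean level of the *Hox* genes of paralog groups 2 to 13 in CP20M per kb of exon, by cluster (rows) and group (columns), in crypts (12 libraries), Epcam+ve cells (2) and HE cells (2); colour is log10 of the level plus 1 and white cells have no gene. HoxC is dark throughout except for groups 4 to 6 in the HE cells, and *Hoxb9* is the brightest cell of the HE panel at 2079 CP20M per kb.

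The posterior genes, group 13, act at the end of the hindgut, and all but *Hoxc13* were present in every crypt library. *Hoxa13* in sorted cells had a mean of 170 ± 36.8 (SD, n = 2, from 16 and 19 reads) CP20M in Epcam+ve cells, 70 and 0 in HE cells and 76 and 268 in KO cells. In crypts *Hoxa13* had 272 and 317 in WT, 357, 318, 243, 502 and 451 in KO, 318, 789 and 651 in eCtrl and 517 and 563 in eKO mice. The HE cells had the lowest *Hoxa13* values of all 18 libraries, and no read was seen in HE pool 2, where 3 reads would have been 40 CP20M. *Hoxb13* in sorted cells had 412 and 278 CP20M in Epcam+ve cells, 300 and 67 in HE cells and 263 and 872 in KO cells. *Hoxb13* in crypts had 576 and 657 in WT, 663, 788, 546, 659 and 779 in KO, 865, 1976 and 2071 in eCtrl and 1390 and 1425 in eKO mice. *Hoxb13* was again lowest in HE pool 2, and among crypts it was highest in eCtrl 2 and eCtrl 3, with eCtrl 1 far below them. *Hoxd13* in sorted cells had 54 and 72 CP20M in Epcam+ve cells, 93 and 0 in HE cells and 338 and 337 in KO cells. *Hoxd13* in crypts had 277 and 426 in WT, 235, 396, 314, 638 and 401 in KO, 274, 867 and 963 in eCtrl and 522 and 493 in eKO mice. *Hoxd13* was near the limit of detection in the HE and Epcam+ve cells and higher in both KO pools, which in KO pool 1 rested on 9 reads. *Hoxc13* had no read in the 6 sorted libraries and at most 12 CP20M in crypts (0 and 5 in WT, 12, 10, 0, 5 and 0 in KO, 0, 0 and 0 in eCtrl and 0 and 2 in eKO). The marker label therefore held for crypts of every mouse, while among sorted libraries the 3 markers ranged from 0 for *Hoxa13* and *Hoxd13* in HE pool 2 to values within or above those of WT crypts for *Hoxb13* in KO pool 2 and *Hoxd13* in both KO pools.

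Group 13 was also summed in each library as a share of all *Hox* signal. As a percentage of the summed CP20M per kb of all 39 members, group 13 took 8.25 and 8.77% in the Epcam+ve cells, 3.12 and 0.56% in the HE cells and 4.7 and 17.2% in the KO cells. It took 14.5 and 17.4% in WT crypts and 15.1, 18.1, 11.3, 16.6 and 16.7% in KO crypts. In the Vil1Cre line it took 19.2, 34 and 31.4% in eCtrl and 26.9 and 24.2% in eKO crypts. Knockout and control crypts overlapped in both lines, and every library of the Vil1Cre line lay above every crypt library of the Olfr78-GFP line. The lines are in separate tables, and this difference was not tested. Scaling a library to a fixed total does not change such a share. KO pool 1 and KO pool 2 differed from each other by more than HE and Epcam+ve libraries did, and KO pool 1 rests on 395 *Hox* reads in all.

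**Figure D2:**
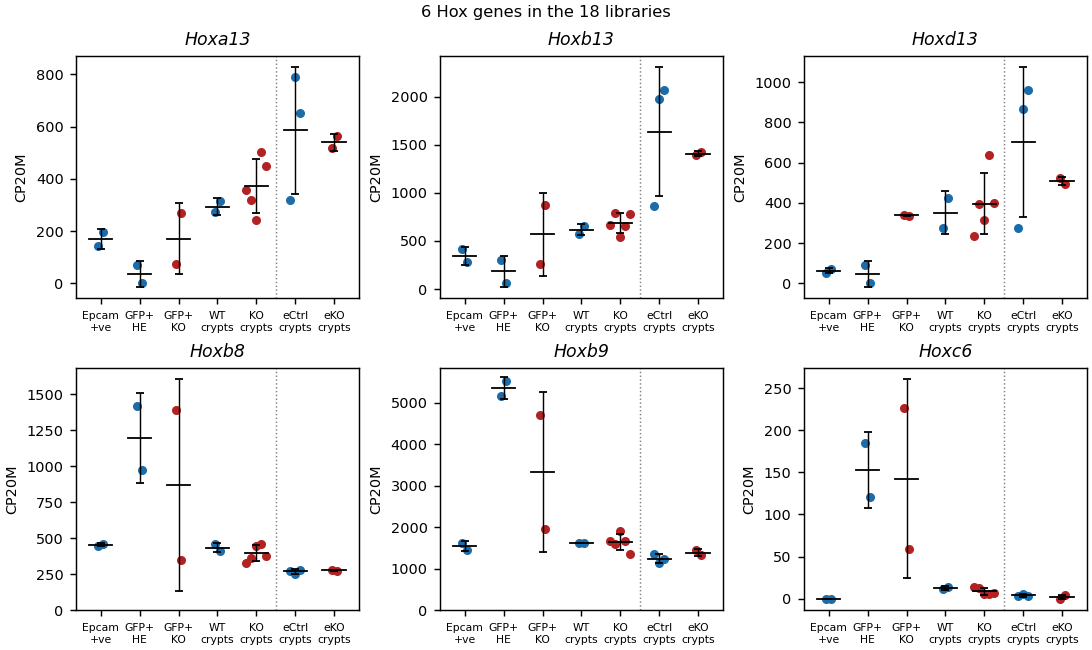
CP20M (linear axes) of 6 *Hox* genes in the 18 libraries, 1 point per library, red for knockout and blue for the rest; bars are the mean ± SD and the dotted line separates the 2 tables. *Hoxb8* and *Hoxb9* are high in the HE cells and in KO pool 1 alone of the KO pools. *Hoxc6* lies above every Epcam+ve and crypt value in both HE pools and both KO pools. *Hoxa13*, *Hoxb13* and *Hoxd13* are lowest in HE pool 2.

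Groups 9 to 12 act in the posterior trunk and the limbs. *Hoxb9* in sorted cells had 1627 and 1459 CP20M in Epcam+ve cells, 5167 and 5534 in HE cells and 4694 and 1964 in KO cells. In crypts *Hoxb9* had 1628 and 1625 in WT, 1677, 1604, 1903, 1674 and 1352 in KO, 1366, 1147 and 1231 in eCtrl and 1449 and 1327 in eKO mice. *Hoxb9* was steady in crypts, both HE pools exceeded every Epcam+ve and crypt value, and of the KO pools the first lay near those pools and the second near the crypts. *Hoxa9* in sorted cells had 313 and 329 CP20M in Epcam+ve cells, 173 and 27 in HE cells and 188 and 268 in KO cells. *Hoxa9* in crypts had 344 and 430 in WT, 451, 392, 328, 702 and 517 in KO, 243, 574 and 462 in eCtrl and 527 and 573 in eKO mice. Unlike *Hoxb9*, its HoxA paralog was lower in both HE pools than in both Epcam+ve samples. *Hoxa10* in sorted cells had 269 and 185 CP20M in Epcam+ve cells, 219 and 214 in HE cells and 263 and 384 in KO cells. *Hoxa10* in crypts had 405 and 417 in WT, 304, 350, 340, 585 and 462 in KO, 396, 624 and 592 in eCtrl and 634 and 583 in eKO mice. *Hoxa10* overlapped between the HE cells and the Epcam+ve cells, and both KO pools exceeded both HE pools. *Hoxa11* in sorted cells had 36 and 93 CP20M in Epcam+ve cells, 47 and 0 in HE cells and 76 and 128 in KO cells. *Hoxa11* in crypts had 150 and 143 in WT, 139, 166, 150, 258 and 234 in KO, 159, 341 and 315 in eCtrl and 210 and 301 in eKO mice. *Hoxa11* was close to the detection limit in sorted cells and reached 341 CP20M in eCtrl 2.

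The HoxD genes of groups 10 to 12 sit beside *Hoxd13*. *Hoxd10* in sorted cells had 0 and 11 CP20M in Epcam+ve cells, 24 and 0 in HE cells and 151 and 24 in KO cells. *Hoxd10* in crypts had 19 and 16 in WT, 28, 91, 31, 74 and 55 in KO, 14, 92 and 114 in eCtrl and 44 and 62 in eKO mice. Both WT mice and eCtrl 1 were below 20 CP20M and every other crypt library was above 25. *Hoxd11* in sorted cells had 36 and 31 CP20M in Epcam+ve cells, 35 and 0 in HE cells and 0 and 93 in KO cells. *Hoxd11* in crypts had 46 and 59 in WT, 56, 130, 110, 261 and 111 in KO, 45, 212 and 282 in eCtrl and 72 and 128 in eKO mice. The same 3 libraries were among the lowest 4 for *Hoxd11*, with KO 1 beside them. *Hoxd12* in sorted cells had 0 and 0 CP20M in Epcam+ve cells, 0 and 0 in HE cells and 0 and 12 in KO cells. *Hoxd12* in crypts had 19 and 34 in WT, 23, 46, 17, 24 and 16 in KO, 21, 63 and 53 in eCtrl and 46 and 61 in eKO mice. *Hoxd12* was at most 63 CP20M in any library.

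Groups 4 to 8 act in the middle of the axis, and in the sorted libraries they took 49% to 59% of the summed *Hox* CP20M per kb. *Hoxb6* in sorted cells had 1493 and 905 CP20M in Epcam+ve cells, 1669 and 1681 in HE cells and 2103 and 779 in KO cells. In crypts *Hoxb6* had 850 and 885 in WT, 903, 768, 1343, 1071 and 1186 in KO, 905, 896 and 1169 in eCtrl and 754 and 1274 in eKO mice. The gap in *Hoxb6* between the Epcam+ve samples, which share a mouse, was wider than that between the higher of them and either HE pool. *Hoxb7* in sorted cells had 367 and 442 CP20M in Epcam+ve cells, 1140 and 947 in HE cells and 826 and 430 in KO cells. *Hoxb7* in crypts had 376 and 331 in WT, 315, 302, 371, 304 and 227 in KO, 441, 227 and 299 in eCtrl and 348 and 290 in eKO mice. *Hoxb8* in sorted cells had 447 and 463 CP20M in Epcam+ve cells, 1416 and 974 in HE cells and 1390 and 349 in KO cells. *Hoxb7* and *Hoxb8* showed the same pattern in sorted cells, with both HE pools above both Epcam+ve samples and the KO cells split between the levels. *Hoxb8* in crypts had 459 and 412 in WT, 329, 366, 449, 461 and 374 in KO, 274, 253 and 282 in eCtrl and 279 and 275 in eKO mice. *Hoxb4* in sorted cells had 197 and 268 CP20M in Epcam+ve cells, 622 and 894 in HE cells and 338 and 640 in KO cells. *Hoxb4* in crypts had 232 and 252 in WT, 321, 269, 454, 311 and 446 in KO, 209, 229 and 426 in eCtrl and 213 and 326 in eKO mice. *Hoxb4* was also higher in each HE pool than in either Epcam+ve sample, and here KO pool 2 lay within the HE range and KO pool 1 below it. *Hoxb5* in sorted cells had 465 and 329 CP20M in Epcam+ve cells, 725 and 361 in HE cells and 714 and 221 in KO cells. *Hoxb5* in crypts had 323 and 392 in WT, 503, 386, 845, 592 and 759 in KO, 337, 405 and 687 in eCtrl and 269 and 448 in eKO mice. *Hoxb5* overlapped between HE cells and Epcam+ve cells, and in crypts its highest values were those of KO 3 and KO 5.

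*Hoxa5* in sorted cells had 260 and 144 CP20M in Epcam+ve cells, 771 and 481 in HE cells and 376 and 523 in KO cells. In crypts *Hoxa5* had 267 and 240 in WT, 268, 305, 333, 406 and 406 in KO, 217, 429 and 417 in eCtrl and 292 and 392 in eKO mice. *Hoxa5*, a gene of lung and gut development, was higher in both HE pools than anywhere else among sorted cells except KO pool 2, which lay within their range. *Hoxa6* in sorted cells had 54 and 42 CP20M in Epcam+ve cells, 81 and 67 in HE cells and 113 and 24 in KO cells. *Hoxa6* in crypts had 43 and 73 in WT, 86, 143, 122, 159 and 170 in KO, 68, 137 and 102 in eCtrl and 92 and 146 in eKO mice. All 5 KO crypt values of *Hoxa6* exceeded both WT values. *Hoxa7* in sorted cells had 537 and 360 CP20M in Epcam+ve cells, 1013 and 547 in HE cells and 1052 and 791 in KO cells. *Hoxa7* in crypts had 544 and 575 in WT, 591, 499, 473, 714 and 661 in KO, 725, 744 and 609 in eCtrl and 741 and 654 in eKO mice. *Hoxa7* was among the steadiest members in crypts. *Hoxd4* in sorted cells had 152 and 247 CP20M in Epcam+ve cells, a mean of 138 ± 81.3 (SD, n = 2, from 17 and 6 reads) in HE cells and 263 and 105 in KO cells. *Hoxd4* in crypts had 328 and 268 in WT, 382, 318, 449, 580 and 367 in KO, 206, 310 and 530 in eCtrl and 269 and 426 in eKO mice. *Hoxd4* showed no separation among sorted cells. *Hoxd8* in sorted cells had 36 and 52 CP20M in Epcam+ve cells, 173 and 107 in HE cells and 76 and 82 in KO cells. *Hoxd8* in crypts had 78 and 73 in WT, 94, 78, 119, 182 and 89 in KO, 139, 63 and 142 in eCtrl and 167 and 82 in eKO mice. *Hoxd8* was higher in both HE pools than in either Epcam+ve sample or either KO pool. *Hoxc6* in sorted cells had 0 and 0 CP20M in Epcam+ve cells, 185 and 121 in HE cells and 226 and 59 in KO cells. *Hoxc6* in crypts had 11 and 14 in WT, 14, 13, 5, 5 and 7 in KO, 3, 6 and 3 in eCtrl and 0 and 4 in eKO mice. All 4 GFP+ve libraries had *Hoxc6*, the Epcam+ve cells had no read, and no crypt library exceeded 14 CP20M. The values of KO pools 1 and 2 rested on 6 and 5 reads. Of its neighbours, *Hoxc4* had 47 and 27 CP20M and *Hoxc5* 35 and 41 in HE cells, with no read of either in the KO pools and at most 9 CP20M in Epcam+ve cells.

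The anterior genes of groups 2 and 3, which pattern the hindbrain and branchial region, were measured at modest levels. *Hoxa2* in sorted cells had 99 and 114 CP20M in Epcam+ve cells, 93 and 14 in HE cells and 0 and 105 in KO cells. In crypts *Hoxa2* had 91 and 109 in WT, 144, 140, 112, 180 and 141 in KO, 40, 79 and 100 in eCtrl and 92 and 97 in eKO mice. *Hoxa2* was unread in KO pool 1 and, within crypts, higher in each KO mouse than in either WT mouse. *Hoxa3* in sorted cells had 385 and 309 CP20M in Epcam+ve cells, 323 and 174 in HE cells and 226 and 314 in KO cells. *Hoxa3* in crypts had 624 and 609 in WT, 619, 606, 665, 696 and 666 in KO, 394, 609 and 549 in eCtrl and 511 and 581 in eKO mice. *Hoxb3* in sorted cells had 367 and 257 CP20M in Epcam+ve cells, 794 and 387 in HE cells and 751 and 303 in KO cells. *Hoxa3* was lower in every sorted library than in WT and KO crypts, and *Hoxb3* was not. *Hoxb3* in crypts had 360 and 354 in WT, 464, 243, 461, 486 and 381 in KO, 363, 227 and 341 in eCtrl and 266 and 322 in eKO mice. *Hoxd3* in sorted cells had 126 and 52 CP20M in Epcam+ve cells, 150 and 27 in HE cells and 113 and 117 in KO cells. *Hoxd3* in crypts had 222 and 132 in WT, 304, 195, 347, 353 and 254 in KO, 97, 222 and 329 in eCtrl and 169 and 232 in eKO mice. *Hoxd3* was lower in the sorted cells than in most crypts, and its KO and WT crypt ranges met between 195 and 222 CP20M. *Hoxa3* spans *Hoxa4*, *Hoxa5* and *Hoxa6* in the annotation, the spans of *Hoxd3* and *Hoxd4* overlap, and *Hoxc5* spans *Hoxc6*. How reads in shared stretches were counted is not given in the sources used here. Values of these members are therefore less certain than those of members that stand alone.

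The first comparison set the 2 HE pools against the 2 Epcam+ve samples. It asked whether GFP+ve cells, which are enteroendocrine, differ in *Hox* pattern from Epcam+ve cells without GFP. The Epcam+ve samples share a wild-type mouse, while the HE pools came from other mice, all heterozygous. Cell type, mouse and genotype thus differ together, so the p-values below cannot assign a *Hox* difference to cell type. No member met the thresholds of the study's methods, and 4 HoxB genes, *Hoxa5* and *Hoxc6* were higher in the HE cells at a looser threshold. Limma was run on log2(CP20M + 10) for the fold changes, and p was adjusted by Benjamini and Hochberg over all 16355 genes tested. At the thresholds of the study's methods (adjusted p below 0.001 and a log2 fold change beyond 2) none of the 24 members tested was called, against 1.75% of all genes (287, of which 90.2% were higher). On the recovered reads edgeR called 746 genes, 77.1% of them higher, and DESeq2 691, 79.3% of them higher, and neither called a member. At an unadjusted p below 0.05, 9 of the 24 members passed. The count over all genes at this limit is not given here. It is at least the 3892 of 16355 genes that had an adjusted p below 0.05. At an adjusted p below 0.05 with no limit on the fold, 6 members were higher, where the background of all genes was 12.5%, and none was lower, where it was 11.3%.

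*Hoxb9* rose most clearly (log2 fold change 1.79, SE 0.18, adjusted p = 0.000467), and its fold change fell short of the limit of 2. *Hoxb4* (log2 fold change 1.66, SE 0.34, adjusted p = 0.0108), *Hoxb7* (log2 fold change 1.35, SE 0.27, adjusted p = 0.00909) and *Hoxb8* (log2 fold change 1.35, SE 0.27, adjusted p = 0.0101) rose with it, so that 4 HoxB genes of groups 4 to 9 were among the 6, while *Hoxb3*, *Hoxb5* and *Hoxb6* did not pass. *Hoxa5* also rose (log2 fold change 1.60, SE 0.41, adjusted p = 0.0255). The sixth was *Hoxc6* (adjusted p = 0.00428), which was unread in Epcam+ve cells and higher in HE cells by at least 10.7-fold, set against a floor of 3 reads over both Epcam+ve samples. With the 3 sorted groups in 1 fit, *Hoxb9* (adjusted p = 0.0232) and *Hoxc6* (adjusted p = 0.0236) still passed, and *Hoxb4* (0.0502), *Hoxb7* (0.0635), *Hoxb8* (0.176) and *Hoxa5* (0.0633) did not. Without a trend *Hoxb7* (adjusted p = 0.0528), *Hoxb8* (0.0623) and *Hoxa5* (0.0827) did not pass, nor did *Hoxa5* without Epcam+ve sample 2 (adjusted p = 0.132). Nearby genes of the same clusters did not pass: *Hoxb5* was at 0.38 (SE 0.40), *Hoxb6* at 0.52 (SE 0.26) and *Hoxa7* at 0.75 (SE 0.37) on the log2 scale.

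Of the 24 members 11 had negative estimates, and none of these passed. They lay toward both ends of the clusters and not only the posterior one. Anterior members among them were *Hoxa2* (-1.225, SE 0.77), *Hoxa3* (-0.52, SE 0.42) and *Hoxd3* (-0.26, SE 0.81), followed by *Hoxd4* (-0.58, SE 0.56) and *Hoxa4* (-0.08, SE 0.84). *Hoxa11* stood at -1.53 (SE 0.93) and *Hoxa10* at -0.04 (SE 0.42). The estimates were -2.01 for *Hoxa9* (SE 0.73, adjusted p = 0.0796) and -2.65 for *Hoxa13* (SE 0.94, adjusted p = 0.0754). *Hoxb13* stood at -1.17 (SE 0.64) and *Hoxd13* at -1.18 (SE 1.04). Either HE pool moves *Hoxa9* and *Hoxa13*, and with 1 pool left its spread is assumed to be that of the Epcam+ve samples. Without HE pool 1 *Hoxa13* and *Hoxa9* were called lower, at log2 fold changes of -4.16 and -3.16, where the background of lower calls was 5.08%. Without HE pool 2 they stood at -1.16 and -0.85, each with an adjusted p of 0.166. Over the 24 members the median log2 fold change was 0.45, beside -0.05 over all genes tested. Antisense and noncoding RNAs of the HoxA posterior end were lower at an adjusted p below 0.05: *Hottip*, the RNA transcribed away from *Hoxa13*, went from 72 and 72 CP20M in the Epcam+ve cells to 0 and 0 in the HE cells (adjusted p = 0.0138), and *Hoxa11os* from 206 and 247 to 47 and 27 (log2 fold change -2.36, SE 0.56, adjusted p = 0.0181). None of the 9 other RNAs of the clusters that could be tested was called at the thresholds of the methods.

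**Figure D3:**
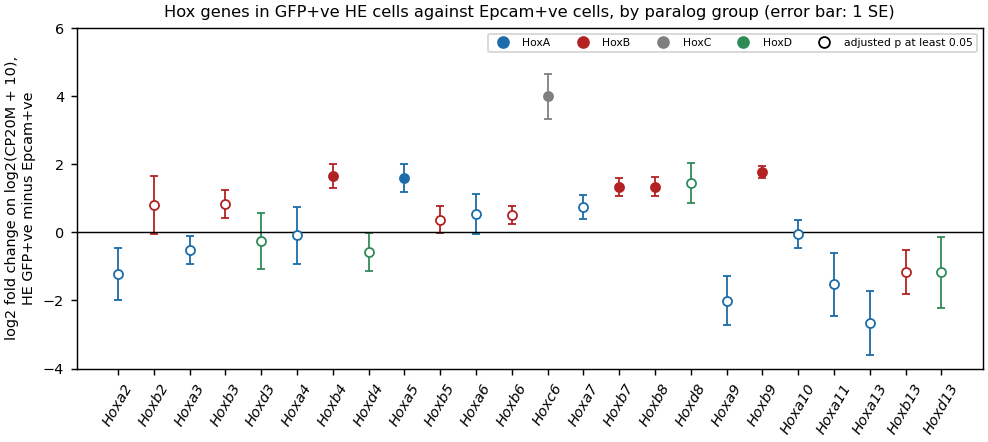
Log2 fold change (± 1 SE) of the 24 tested *Hox* genes in HE cells minus Epcam+ve cells on log2(CP20M + 10), ordered by paralog group and coloured by cluster; filled points have an adjusted p below 0.05. The 6 filled points all lie above 0 between groups 4 and 9, the point of *Hoxc6* depends on the added 10 because the Epcam+ve cells have no read, and all 3 points of group 13 lie below 0 with bars of 0.64 to 1.04.

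The regulators of *Hox* genes and of gut region did not move as a block between HE cells and Epcam+ve cells, and none passed the thresholds of the methods. Among the 11 chromatin regulators, *Kmt2a* stood at 2897 and 1767 CP20M in the Epcam+ve cells and 7388 and 7828 in the HE cells, and was higher at an adjusted p below 0.05 (log2 fold change 1.74, SE 0.24, adjusted p = 0.00222). The Polycomb enzyme gene *Ezh2* went from 1145 and 1305 to 530 and 347 and was lower (log2 fold change -1.49, SE 0.28, adjusted p = 0.00795). Of the TALE cofactor genes, *Pbx3* went from 313 and 247 to 47 and 41 (log2 fold change -2.42, SE 0.51, adjusted p = 0.0121), and *Meis1* had at most 12 CP20M in any sorted library. Of the 7 gut region factors tested, the hepatocyte nuclear factor genes *Hnf4a* (7741 and 7489 against 5098 and 4681 CP20M, log2 fold change -0.64, SE 0.16, adjusted p = 0.0251) and *Hnf4g* (1422 and 1048 against 679 and 587 CP20M, log2 fold change -0.94, SE 0.25, adjusted p = 0.0297) were lower in HE cells. The colon factor *Cdx2* (2897 and 2949 against 2359 and 1921, adjusted p = 0.118) did not pass. The L-cell hormones *Insl5* and *Pyy*, known as hormones of distal L cells, differed between the HE pools: *Insl5* had 1899 and 441 CP20M and *Pyy* 5017 and 681 in pools 1 and 2, against 0 and 11 and 45 and 124 in the Epcam+ve cells. HE pool 1, with the higher hormone values, also had the higher *Hoxa13*, *Hoxb13* and *Hoxd13* values. In KO pools 1 and 2 *Insl5* had 564 and 1139 CP20M and *Pyy* 2516 and 2568. There *Hoxa13* and *Hoxb13* were higher in pool 2, and *Hoxd13* was level. The summed level of 9 fibroblast and smooth muscle markers was 386 and 260 CP20M in the Epcam+ve cells and 419 and 0 in the HE cells. It was 0 and 224 in the KO cells, and *Lum* had no read in any sorted library. Gut mesenchyme expresses *Hox* genes too, and the part of these cells in the *Hox* values was not tested.

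Loss of Olfr78 in GFP+ve cells was addressed by the 2 KO pools against the 2 HE pools, and no *Hox* difference passed. None of 15 members tested was called at an adjusted p below 0.05, nor was any of the 11892 genes tested (0%), and 503 genes (4.23%) but no member had an unadjusted p below 0.05. The edgeR test called no gene and DESeq2 called 8, of which none was a member. The 3 smallest p-values belonged to *Hoxb13* (log2 fold change 1.67, SE 0.81), *Hoxb9* (-0.81, SE 0.41) and *Hoxb7* (-0.79, SE 0.42), each with a limma adjusted p of 0.931. The KO and HE ranges were apart for 4 of the 15, *Hoxa10*, *Hoxb7*, *Hoxb9* and *Hoxd8*, where the background of genes with no overlap was 35%. By the criterion in the study's methods, which sets the difference of means against the SDs and uses no test, *Hoxd8* was lower, where 13.2% of all genes met it. *Hoxa13* and *Hoxd13* were left out of this test because HE pool 2 had no read of either.

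Either KO pool moves this result too, and with 1 pool left the spread comes from the HE pools alone. Without KO pool 1 *Hoxb8* and *Hoxb9* were called lower, *Hoxb9* at a log2 fold change of -1.44, with 1.9% of all genes called lower. Without KO pool 2 no member was called, and *Hoxb9* stood at -0.19 with an adjusted p of 0.771. The median log2 fold change was -0.35 over the members and -0.18 over all genes, and the latter moved to -0.02 after median-of-ratios rescaling. Enteroendocrine markers summed to 584681 and 352852 CP20M in the KO cells, below both HE pools. KO pool 2 thus had the lowest summed marker level of the GFP+ve libraries. Among these libraries it also stood closest to crypts in *Hoxb7*, *Hoxb8*, *Hoxb9* and *Hoxc6*, which are 4 of the 6 members higher in HE cells. For the other members, *Hoxb4* and *Hoxa5*, the order was reversed. The first KO pool (338 and 376 CP20M) lay within the range of crypts, and the second (640 and 523) above it. The part of the marker difference in the *Hox* values was not tested.

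In whole crypts of the Olfr78-GFP line several *Hox* genes were higher in the 5 KO than in the 2 WT mice. At the thresholds of the study's methods (adjusted p of at most 0.2 and a change beyond 1.5-fold), 5 of 25 members rose, where 7.95% of the 15975 genes tested rose, and none fell, where 1.53% did. These were *Hoxa6* (log2 fold change 1.10, SE 0.27, adjusted p = 0.0296), *Hoxd10* (log2 fold change 1.16, SE 0.38, adjusted p = 0.0823), *Hoxb5* (log2 fold change 0.72, SE 0.24, adjusted p = 0.0844), *Hoxd3* (log2 fold change 0.70, SE 0.24, adjusted p = 0.0923) and *Hoxd11* (log2 fold change 1.06, SE 0.39, adjusted p = 0.114). By edgeR and by DESeq2 the same 5 members were called. All KO values exceeded all WT values for *Hoxa2*, *Hoxa5*, *Hoxa6*, *Hoxb4* and *Hoxd10*, where the background of genes with every KO value above every WT value was 18.2%. Group 13 did not follow: *Hoxa13* was at 0.30 (SE 0.23), *Hoxb13* at 0.14 (SE 0.14) and *Hoxd13* at 0.13 (SE 0.29) on the log2 scale, each with an adjusted p of 0.439 or more. *Hoxb9* was level, at 0.01 (SE 0.12). Over the 25 members the median log2 fold change was 0.28, beside 0.03 over all genes.

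The 5 calls rest on both WT mice. Without WT 1 only *Hoxd3* was called, with 4.83% of all genes rising, and without WT 2 only *Hoxa6* was, with 2.89% rising. With the mouse number as a block, 3 were called, *Hoxa6*, *Hoxd10* and *Hoxd11*, with 7.07% of all genes rising. *Hoxd3os1*, an antisense RNA that overlaps *Hoxd3*, rose as well, from 160 and 107 CP20M in WT to 230, 143, 273, 290 and 247 in KO crypts (log2 fold change 0.77, SE 0.25, adjusted p = 0.0762), and whether the counting separated the strands is not given in the sources used here.

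Other genes with a known gradient along the colon moved between the same mice. Of the distal list, the proton pump subunit gene *Atp12a* stood at 823 and 569 CP20M in WT and 1265, 1542, 1595, 2111 and 1399 in KO crypts (log2 fold change 1.18, SE 0.18, adjusted p = 0.00616). The epithelial sodium channel gene *Scnn1b* went from 94 and 86 to a mean of 170.2 CP20M, with no KO mouse under 139 (log2 fold change 0.84, SE 0.18, adjusted p = 0.0197) and *Scnn1g* from 24 and 10 to 53, 124, 41, 162 and 82 (log2 fold change 1.83, SE 0.43, adjusted p = 0.0265). These 3 of the 5 distal genes measured rose, and the hormone genes *Insl5* (-0.50, adjusted p = 0.158) and *Pyy* (-0.20, adjusted p = 0.461) were not called. Of the 3 proximal genes, the sodium-proton exchanger gene *Slc9a3* rose (2589 and 1999 against 4590, 5659, 3301, 10136 and 9688 CP20M, log2 fold change 1.42, SE 0.35, adjusted p = 0.031). Carbonic anhydrase gene *Car1* was lower in every KO mouse (105749 and 111936 against 70806, 69591, 74917, 83771 and 81094 CP20M, log2 fold change -0.52, SE 0.13, adjusted p = 0.0314) but under the fold limit, and the defensive ribonuclease gene *Ang4* ranged from 277 to 1789 CP20M in KO crypts. Some genes of cells other than epithelium moved too, in both directions. *Myh11* of smooth muscle stood at 54 and 25 in WT and 235, 247, 107, 247 and 107 in KO crypts and rose (log2 fold change 1.97, SE 0.36, adjusted p = 0.0112). The other tested genes of its list had negative estimates: *Dcn* (-1.01, SE 0.48), *Col1a2* (-0.79, SE 0.39), *Col3a1* (-0.73, SE 0.44), *Col1a1* (-0.63, SE 0.38) and *Pdgfra* (-0.12, SE 0.37). Limma called none of them, and edgeR called *Dcn*, *Col1a1* and *Col1a2* lower. The leukocyte genes *Ptprc* (log2 fold change -0.66, SE 0.26, adjusted p = 0.14) and *Lyz2* (log2 fold change -1.34, SE 0.42, adjusted p = 0.0702) and the enteroendocrine granin *Chgb* (log2 fold change -0.61, SE 0.23, adjusted p = 0.124) fell. The 9 fibroblast and smooth muscle markers summed to 2585 and 1001 CP20M in WT and 1554, 1782, 892, 765 and 801 in KO crypts, so WT 1 held the most. Their part in the *Hox* differences was not tested. No TALE cofactor, chromatin regulator or gut region factor was called in these crypts, *Cdx2* standing at -0.42 (adjusted p = 0.0983).

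Deletion of Olfr78 in the epithelium of the Vil1Cre line gave no *Hox* call. None of 25 members was called and none of the 15401 genes tested was (0%), while 127 genes (0.825%) and no member had an unadjusted p below 0.05. The edgeR test called none and DESeq2 called 6 genes, none of them a member. The smallest p-values were those of *Hoxa9* (log2 fold change 0.44, SE 0.33, adjusted p = 1), *Hoxb5* (log2 fold change -0.38, SE 0.34, adjusted p = 1) and *Hoxa2* (log2 fold change 0.41, SE 0.38, adjusted p = 1). Of the 5 genes called in the other line, *Hoxa6* was at 0.21 (SE 0.35), *Hoxd3* at 0.03 (SE 0.45), *Hoxd10* at -0.11 (SE 0.69) and *Hoxd11* at -0.52 (SE 0.67). These errors are wide, and eCtrl 1 stood apart from eCtrl 2 and eCtrl 3: it had 14 CP20M of *Hoxd10*, 45 of *Hoxd11* and 274 of *Hoxd13*, where the others had at least 92, 212 and 867. *Atp12a* had the same order among the 3 eCtrl mice, with 592, 2444 and 4212 CP20M in eCtrl and 928 and 3462 in eKO crypts, and *Car1* was highest in eCtrl 1, with 120418, 75676 and 91882 in eCtrl and 100036 and 81808 in eKO crypts. The median log2 fold change was 0.01 over members and 0.03 over all genes. Without the library labelled eKO 2 no member was called either, against 6 genes (0.0399%), and the eKO arm is then 1 mouse that is assumed to vary like the controls. *Hoxa9* then stood at 0.38 (SE 0.43), *Hoxb5* at -0.74 (SE 0.38) and *Hoxa2* at 0.37 (SE 0.49). *Hoxa6* and *Hoxd3* turned to -0.09 (SE 0.41) and -0.18 (SE 0.57), and *Hoxd10* and *Hoxd11* stood at -0.32 (SE 0.88) and -0.90 (SE 0.84). The medians were -0.13 over members and 0.02 over all genes.

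Both lines together, with the line as a covariate, gave no *Hox* call among 26 members, against 4 of 16447 genes (0.0243%). The edgeR test called 9 genes and DESeq2 38, again with no member among them. At an unadjusted p below 0.05, which 7.7% of all genes reached, *Hoxa6* (log2 fold change 0.70, SE 0.25, adjusted p = 0.618) and *Hoxa2* (log2 fold change 0.44, SE 0.19, adjusted p = 0.627) passed, and *Hoxa9* (log2 fold change 0.34, SE 0.21, adjusted p = 0.678) came next. Leaving out eKO 1 brought a call of *Hoxa6*, with 6.15% of all genes rising, and leaving out the library labelled eKO 2 brought 32 calls over all genes and no member. The difference between the lines was tested as an interaction: no member was called at an adjusted p of at most 0.2, against 0.0304% of all genes, and *Hoxb5* had the smallest p (-1.10 for the eKO minus the KO effect, SE 0.45, limma adjusted p = 0.557). The next were *Hoxa6* (-0.89, SE 0.45) and *Hoxb2* (0.91, SE 0.48), the latter with 30 and 41 CP20M in WT, 25, 59, 29, 30 and 25 in KO, 21, 14 and 10 in eCtrl and 39 and 28 in eKO crypts, and 81 and 11, 104 and 41, 188 and 24 in Epcam+ve, HE and KO sorted libraries. A *Hox* effect present in the Olfr78-GFP line and absent from the Vil1Cre line was thus not shown. This test turns on single libraries: without the library labelled eKO 2, *Hoxa4*, *Hoxa6* and *Hoxb5* differed between the lines, but so did 26.3% of all genes, and without eCtrl 1, *Hoxd10* and *Hoxd11* did, with 3.76% of all genes.

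**Figure D4:**
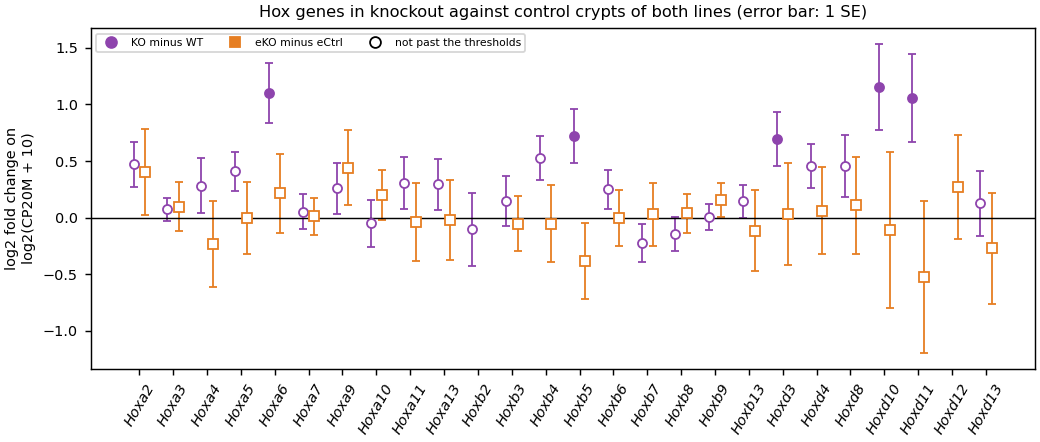
Log2 fold change (± 1 SE) of *Hox* genes on log2(CP20M + 10) in KO minus WT crypts (circles) and in eKO minus eCtrl crypts (squares); filled symbols passed the thresholds of the crypt comparisons. The 5 filled circles are *Hoxa6*, *Hoxb5*, *Hoxd3*, *Hoxd10* and *Hoxd11*, no square is filled, and the error bars of the HoxD genes are the widest.

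Between mice of the same group, *Hox* genes varied more than most genes. The residual SD of log2(CP20M + 10) within the 4 crypt groups had a median of 0.22 over 16447 genes and 0.39 over the 26 members tested, 22 of which lay above the median of all genes. Of the 26, 6 exceeded the 90th percentile of all genes (0.48), and all 6 were HoxD genes: *Hoxd11* (0.85), *Hoxd10* (0.79), *Hoxd13* (0.63), *Hoxd3* (0.53), *Hoxd8* (0.50) and *Hoxd12* (0.49). Read counting alone would give these members SDs of 0.11 to 0.31. *Hoxb9* (0.14), *Hoxb8* (0.15), *Hoxa3* (0.18) and *Hoxa7* (0.20) lay below the median of all genes. Within the Olfr78-GFP line 24 members exceeded the median of all genes and 5 the 90th percentile, *Hoxb5* beside 4 HoxD genes. Within the Vil1Cre line these counts were 23 and 6, the 6 again HoxD genes. Without the library labelled eKO 2 they were 22 and 10 over both lines, and the 10 were 7 HoxD genes with *Hoxa9*, *Hoxa13* and *Hoxb5*. These are descriptions over genes that share their libraries, and members of a cluster are not independent of each other.

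**Figure D5:**
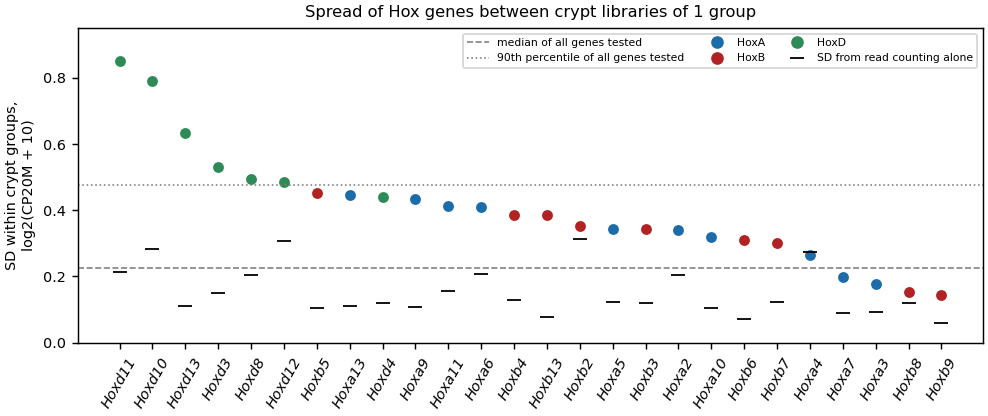
SD within crypt groups of log2(CP20M + 10) for the 26 tested *Hox* genes, largest first and coloured by cluster; short bars give the SD from read counting alone and lines mark the median (0.22) and 90th percentile (0.48) of all 16447 genes. The 6 points above the upper line are HoxD genes, and *Hoxa7*, *Hoxa3*, *Hoxb8* and *Hoxb9* lie under the lower line.

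Finally, Epcam+ve sorted cells were set against whole WT crypts of the same line, a comparison the study itself did not make. The Epcam+ve samples share a mouse, while each crypt library is a mouse of its own. Mouse and isolation thus differ together, so the p-values below cannot assign a *Hox* difference to sorting. They also hold no spread between mice on the sorted side. *Hoxd13*, at 54 and 72 CP20M in the sorted cells against 277 and 426 in crypts, was lower (log2 fold change -2.29, SE 0.33, adjusted p = 0.00306) and was the single one of 24 members called at an adjusted p below 0.05 and a log2 fold change beyond 1, where 5.27% of 15434 genes were called lower and 4.64% higher. Without the fold limit *Hoxa3* (-0.82, limma adjusted p = 0.0196), *Hoxb13* (-0.84, limma adjusted p = 0.0317) and *Hoxa10* (-0.85, limma adjusted p = 0.0394) were lower too, against 18.5% of all genes. None of these 3 passed by edgeR (adjusted p = 0.0553, 0.0688 and 0.101) or by DESeq2 (adjusted p = 0.302, 0.308 and 0.409), where their log2 fold changes were -0.58 to -0.60. *Hoxb9* (-0.08, SE 0.13) and *Hoxb8* (0.06, SE 0.19) stood close to 0. The median over all genes was -0.26 and moved to -0.07 after median-of-ratios rescaling, which also changed the share of calls that were higher from 46.8% to 66.9%, and *Hoxd13* was called lower after rescaling too. With no filter on low values no gene was called. The cluster RNA *Hoxaas3* was lower as well (a mean of 201 against 621 and 650 CP20M, log2 fold change -1.61, SE 0.20, adjusted p = 0.00172). In these libraries the stromal genes *Dcn* (27 and 11 against 1175 and 492 CP20M), *Col3a1* and *Col1a2* and the leukocyte genes *Ptprc*, *Cd3e* and *Lyz2* were also called lower in sorted cells, as were *Atp12a* (81 and 31 against 823 and 569), *Slc9a3*, *Ang4*, *Pyy*, *Insl5*, *Gcg* and *Krt20*. The part of stromal cells or of the colon stretch in the *Hoxd13* difference was not tested.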

How the data were processed

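Bulk RNA-seq of 6 sorted-cell and 12 crypt libraries was analysed. Libraries were made with the Ovation Solo kit. The authors mapped paired reads to GRCm38 with STAR, counted them per gene with HTSeq and deposited gene values scaled to 20000000 reads per library (CP20M) and rounded up, in 1 table for each mouse line. All deposited values hold the same quantity, scaled reads, a signal that was rounded to whole numbers and is classed for that reason as a score in the crypt columns. Library totals were 20008418 to 20018145. The strand setting of the counting is not given in the sources used here, so that antisense partners cannot be told apart.

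The design assumed scaled values, but low values were whole multiples of what 1 read is worth, so that 99.8% to 100.0% of the values above 0 in each library came back as whole reads. The main test was limma 3.58.1 with a trend (R 4.3.3) on log2(CP20M + 10), computed here from the deposited values, adjusted over all genes tested by Benjamini and Hochberg, on genes with at least 40 CP20M in 2 libraries compared (all 4 for KO against HE pools). Alternatives were edgeR 4.0.16 and DESeq2 1.42.0 on recovered reads, pseudocounts of 1 and 40, no filter, median-of-ratios rescaling, no trend, the replicate number as a block and leaving out each library. Scripts were tested on simulated data. Replicate numbers did not pair the samples: correlations of same-numbered deviations were -0.16 to 0.06, and 0.36 and 0.59 in the 2 Vil1Cre pairs, too few to pair by. No 2 replicates agreed within sampling noise.

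The members and gene lists were chosen with earlier results of these data known. Members were named if they belong to group 13, had a mean of at least 200 CP20M in a group, were called, or had 1 of the 3 smallest p-values of a comparison. Of the other lists, called genes and the first 2 of each are named, and other genes were named after their values were seen. Some genes that the rule would name are not reported here. Intervals were not computed, and depth enters as the value of 1 read. P-values over samples that share a mouse measure technical spread.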

Additional observations from a re-analysis of the deposited data

Results flagged for a closer look

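Of 36 values tested for a library far from the rest of its group, 1 stood out. *Hoxd12* in KO crypts was 46 CP20M in KO 2, and 16 to 24 CP20M in the other 4 KO mice, a gap of 0.733 of the whole range against a critical value of 0.71. Chance alone flags about 1 group in 20. *Hoxd12* was not called in any comparison, and among KO crypts the same library was also the highest for *Hoxd10*, at 91 CP20M, and *Hoxb13*, at 788 CP20M, and not for *Hoxd11* or *Hoxd13*, where KO 4 was.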

How the results depend on the processing

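Of 114 alternative counts of *Hox* calls, 98 stayed within 1.5 times the count reported, and 16 did not. None of 398 recomputed log2 fold changes reversed. These covered called members, those with the 3 smallest p-values of each comparison and some others, not every member named. *Hoxa6* and *Hoxd3* in the Vil1Cre line were not among them, and both turned negative without the library labelled eKO 2. For HE pools against Epcam+ve samples, where 0 members were called, 6 passed at an adjusted p below 0.05 with no fold limit, and leaving out 1 library gave 0 to 2. For KO against HE pools the count of 0 became 1 by the criterion of the methods and 0 to 2 when 1 library was left out. For KO against WT crypts the 5 calls became 3 with the replicate block, 1 at an adjusted p below 0.05, and 1 to 6 when 1 mouse was left out. For both lines together leaving out 1 mouse gave 0 to 1. For Epcam+ve samples against WT crypts the 1 call became 0 with no filter on low values, 2 with the replicate block, 4 with no fold limit, and 1 to 4 when 1 library was left out. For the difference between the lines, where the alternatives were added after seeing the data, leaving out 1 mouse gave 0 to 3. The replicate block changed no other count of members, and with the KO and HE pool numbers crossed, also added after seeing the data, 85 genes and 0 members were called. The causes were not tested, other than that leaving out a library or dropping the filter changes how many samples or genes enter.

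Counts over all genes moved further. The 287 genes called between HE pools and Epcam+ve samples became 77 with a pseudocount of 1, 522 with a pseudocount of 40, 746 by edgeR, 691 by DESeq2, 523 with the replicate block, 117 with the 3 sorted groups in 1 fit, 1195 without HE pool 1, 523 without HE pool 2 and 0 without a trend. The 0 calls between KO and HE pools became 8 by DESeq2, 96 without KO pool 2 and 373 without KO pool 1. The 1514 calls in KO against WT crypts became 854 with a pseudocount of 40, 953 without WT 1 and 546 without WT 2. The 4 calls over both lines became 27 with the replicate block, 38 by DESeq2, 9 by edgeR, 32 without the library labelled eKO 2 and 1134 without eKO 1. The 5 genes that differed between the lines became 66 by DESeq2. The 0 calls in the Vil1Cre line became 13 with the replicate block and 6 by DESeq2. The 1530 calls between Epcam+ve samples and WT crypts became 953 by DESeq2, 0 with no filter, 2232 without Epcam+ve sample 1, 837 without WT 1 and 751 without WT 2. A gene near 1 read, 37.5 CP20M in KO pool 1, cannot show a change at this depth.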
